A study of Homo sapiens with 4 samples.

Results

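The enzymes that make, recycle and clear the deoxynucleotides used for DNA synthesis were followed in RKO cells with and without a hairpin against the chromatin remodeller CHD7. RKO is a human colorectal cancer line. The 9 genes described are RRM1, RRM2, RRM2B, TYMS, DUT, TK1, DCK, DCTPP1 and SAMHD1, out of 15357 genes in the table, and all 9 passed the filter on low counts that left 11955 genes for testing. The 9 were selected on earlier results of this same contrast, in which RRM2B was higher and TYMS was lower with the hairpin, so their differences are given below as a description, with standard errors and without p-values. Where members are counted by the calls of the fit over all genes, those calls come from the values that chose them and are not evidence about them.

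The vector group was 2 samples of RKO cells carrying a control lentivirus, and the shCHD7_2 group was 2 samples carrying a lentivirus that expresses CHD7 shRNA2. Both were stably infected lines grown in Eagle's Minimum Essential Medium with fetal bovine serum, and all libraries were made from polyadenylated RNA. The sequenced knockdown rests on 1 hairpin, so loss of CHD7 and any other effect of that hairpin cannot be told apart. The labels do not say whether the samples of a group were separate cultures, so the errors and p-values measure the spread between these samples, which may be technical.

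Estimated counts summed to between 15734679 and 16068650 per sample, and the member genes had between 443 and 5217 counts in a sample. CHD7 itself had 85.4 and 91.0 CPM (read counts scaled to library size by the TMM method) in the vector samples and 55.5 and 50.1 in the shCHD7_2 samples, a log2 fold change of -0.74 (SE 0.088, adjusted p = 4.15e-06 by edgeR's quasi-likelihood test). Of 12 colon epithelial markers, 7 were in the table and 4 reached a mean of 1 CPM (CDX2, EPCAM, KRT8 and KRT18). CDH1, KRT20 and LGR5 did not reach it, and the defining markers KRT19, VIL1, CDX1, MUC2 and CEACAM5 were not among the genes analysed. Of 8 fibroblast markers 3 were in the table and none reached 1 CPM. The sum of those 3 was at most 0.564 CPM in any sample. Of 8 immune markers 5 were in the table, and CD68 alone reached a mean of 1 CPM over the 4 samples. The immune sum, nearly all of it CD68, ran from 851 to 909 CPM in the vector samples and from 999 to 1026 CPM in the shCHD7_2 samples. The T cell marker CD8A had 0.580 and 0.443 CPM in the vector samples and 1.12 and 1.25 CPM in the shCHD7_2 samples (log2 fold change 1.204, SE 0.42, adjusted p = 0.0664 by edgeR's quasi-likelihood test), and the part of these markers in the results was not tested.

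Cells build deoxynucleotides mainly by reducing ribonucleotides, a step carried out by ribonucleotide reductase, which pairs a large catalytic subunit with a small radical-bearing subunit. Thymidine nucleotides need a further step, the methylation of dUMP by thymidylate synthase, and salvage kinases return free deoxynucleosides to the pool. Dividing cells make much of this machinery in S phase, and the balance between the deoxynucleotides bears on replication fidelity, DNA repair and the action of fluoropyrimidine drugs used against colorectal cancer.

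Among the 9 genes, RRM2B was the one called higher and TYMS the one called lower at an adjusted p under 0.05 with a fold change of at least 1.5. Over all genes tested 2.88% were called, 1.51% higher and 1.37% lower, and since the members were chosen on this contrast nothing is read from their count of 2. Without the fold threshold 4 members had an adjusted p under 0.05, where the share over all genes was 11.5%. In 5 members the vector and shCHD7_2 samples did not overlap, where the share over all genes was 53.7%. The median log2 fold change over the 9 members was -0.0067, beside 0.00056 over all genes tested, with 4 members above 0 and 5 below it.

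**Figure D1:**
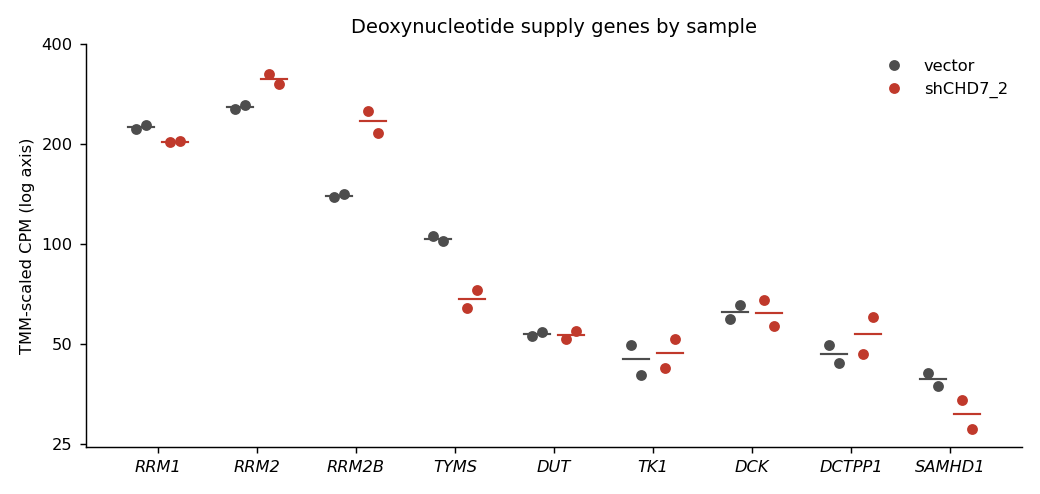
TMM-scaled CPM of the 9 genes in each sample, on a log axis, with vector samples in grey, shCHD7_2 samples in red and a line at each group mean. RRM2 and RRM2B sit higher in both shCHD7_2 samples, RRM1, TYMS and SAMHD1 sit lower in both, and the other 4 genes overlap between the groups.

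RRM2B encodes the p53-inducible small subunit of ribonucleotide reductase, which supplies deoxynucleotides for repair and for mitochondrial DNA in cells outside S phase. RRM2B (chr8:102204502-102239118, minus strand, GENCODE 29 on GRCh38) had 138 and 141 CPM in the vector samples and 252 and 217 CPM in the shCHD7_2 samples. The vector samples lay within a few CPM of each other, the shCHD7_2 samples were both far above them, and the first shCHD7_2 sample was the higher of its pair. The group means were 140 ± 2.001 CPM and 234 ± 25.2 CPM (SD, n = 2 each). The fitted log2 fold change was 0.75 (SE 0.082), a 1.68-fold higher level. It ranged from 0.63 to 0.85 when 1 sample was left out at a time, and it stayed above the 1.5-fold line under each of the 14 other settings tried. No gene of the annotation overlaps RRM2B.

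RRM2 encodes the small subunit that dividing cells use in S phase. RRM2 (chr2:10120698-10131419, plus strand) had 256 and 262 CPM in the vector samples and 325 and 303 CPM in the shCHD7_2 samples. Both shCHD7_2 samples were above both vector samples, by a smaller margin than for RRM2B. Its log2 fold change was 0.28 (SE 0.074), a 1.21-fold higher level that did not reach the fold threshold.

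RRM1 encodes the large catalytic subunit shared by both forms of the enzyme. RRM1 (chr11:4094707-4138876, plus strand) had 222 and 229 CPM in the vector samples and 202 and 205 CPM in the shCHD7_2 samples. The groups did not overlap, and RRM1 differed in the opposite direction from the small subunits. Its log2 fold change was -0.15 (SE 0.073), a level 0.902 times that of the vector group, and it was not called.

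Levels of different genes were compared on the FPKM scale, which divides by gene length. In the vector samples RRM2 was at 81.8 ± 1.23 FPKM, RRM1 at 72.0 ± 1.28 FPKM and RRM2B at 28.9 ± 0.332 FPKM (SD, n = 2 each). In the shCHD7_2 samples RRM2 was at 102 ± 5.82 FPKM, RRM1 at 66.9 ± 0.177 FPKM and RRM2B at 49.97 ± 5.65 FPKM (SD, n = 2 each). RRM2 therefore remained the more abundant small-subunit transcript in each of the 4 samples.

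The ratio of RRM2B to RRM2, taken within each sample from FPKM values, was 0.354 and 0.352 in the vector samples and 0.507 and 0.468 in the shCHD7_2 samples. The shCHD7_2 ratios were both above the vector ratios, and the log2 difference of the group means was 0.47. Written as a share, RRM2B made up 26.1% and 26.05% of the small-subunit FPKM in the vector samples and 33.7% and 31.9% in the shCHD7_2 samples. RRM2 and RRM2B together came to 1.54 and 1.53 times the RRM1 FPKM in the vector samples and to 2.40 and 2.15 times in the shCHD7_2 samples. The small-subunit transcripts thus stood higher against the large-subunit transcript in both shCHD7_2 samples. Higher RRM2, higher RRM2B and lower RRM1 FPKM each contributed. These ratios are built from genes chosen for their difference and carry no test. They describe polyadenylated RNA in bulk samples, in which fewer cells of one kind and less RNA per cell cannot be told apart.

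**Figure D2:**
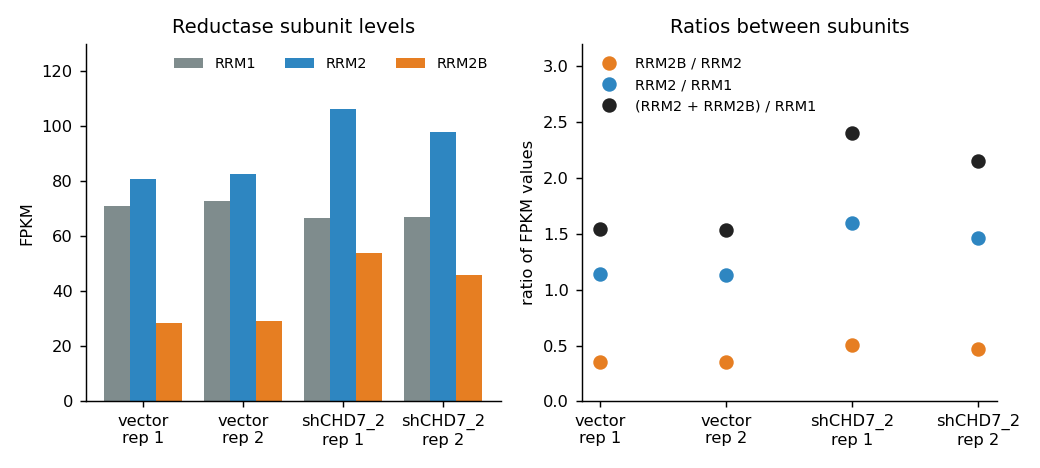
Left, FPKM of the 3 ribonucleotide reductase subunits as bars in each of the 4 samples. Right, ratios of FPKM values within each sample, where RRM2B to RRM2 is 0.354 and 0.352 in the vector samples and 0.507 and 0.468 in the shCHD7_2 samples.

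RRM2 and RRM2B are related in sequence, so division of reads between them was examined. Their coding sequences in the annotation (1347 and 1053 bases) were 74.7% identical over 1053 aligned bases, and the longest run they shared was 18 bases. The estimated counts of both genes were whole numbers in all 4 samples, as they were for 7 of the 9 members. TYMS and SAMHD1 were the exceptions. Genes that overlap RRM1, RRM2 and DUT in the annotation (RRM1-AS1, AC007240.1 and AC023355.1) were not analysed here.

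TYMS encodes thymidylate synthase, which converts dUMP to dTMP and is the target of fluorouracil. TYMS (chr18:657604-673578, plus strand) had 106 and 102 CPM in the vector samples and 64.3 and 72.6 CPM in the shCHD7_2 samples. Both shCHD7_2 samples were below both vector samples, with a gap wider than the spread within either group. The means were 104 ± 2.36 CPM and 68.4 ± 5.85 CPM (SD, n = 2 each). The fitted log2 fold change was -0.60 (SE 0.086), a level 1.52-fold lower and just past the 1.5-fold line. It ranged from -0.69 to -0.52 when 1 sample was left out at a time, and it was negative in each of the 15 other settings tried. In 7 of them it fell short of the 1.5-fold line, among them the fits without vector replicate 1 (-0.58) and without shCHD7_2 replicate 1 (-0.52), library totals in place of TMM (-0.56) and limma on log2(FPKM + 1) (-0.55). On the FPKM scale TYMS was the second of the 9 genes by mean level in the vector group (73.3 and 70.8 FPKM, overlapping the 71.1 and 72.9 FPKM of RRM1) and the fifth in the shCHD7_2 group (46.2 and 51.5 FPKM).

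The 3′ end of TYMS overlaps the opposite-strand gene ENOSF1 (chr18:670324-712676) by 3255 bases, and whether counting used strand is not given in the sources used here. Estimated counts of TYMS were 1640 and 1615 in the vector samples and 1031 and 1158 in the shCHD7_2 samples, none of them whole. ENOSF1, which encodes a mitochondrial enolase superfamily protein, had 1325, 1317, 1244 and 1210 counts in the same order. The counts of the pair summed to 2965, 2932, 2275 and 2368, and 3 of these 4 sums were whole within 0.015, so the fractional parts of the genes complement each other. TYMS took 55.3% and 55.1% of the summed counts in the vector samples and 45.3% and 48.9% in the shCHD7_2 samples. ENOSF1 alone had a log2 fold change of -0.14 (SE 0.083, adjusted p = 0.313 by edgeR's quasi-likelihood test) and did not pass the threshold. With the counts of both genes added, the log2 fold change was -0.38, which is under the fold threshold. How reads were assigned within the overlap was not tested.

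**Figure D3:**
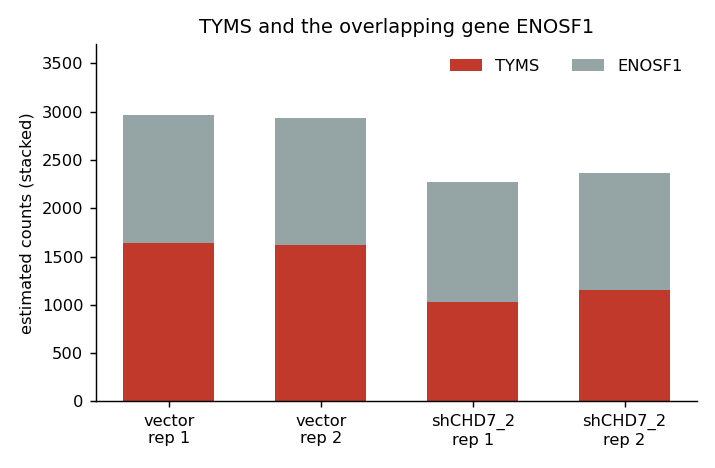
Estimated counts of TYMS (red) and of the overlapping gene ENOSF1 (grey), stacked for each sample on an axis that starts at 0. The TYMS part falls from 1640 and 1615 counts in the vector samples to 1031 and 1158 in the shCHD7_2 samples, while the ENOSF1 part runs from 1210 to 1325 counts.

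At its 5′ end TYMS overlaps the opposite-strand non-coding gene TYMSOS by 737 bases. TYMSOS had 1.61 and 1.84 CPM in the vector samples and 2.62 and 3.13 CPM in the shCHD7_2 samples. Its values lay in the opposite direction to TYMS, with a log2 fold change of 0.74 (SE 0.26) that did not pass the threshold (adjusted p = 0.0742 by edgeR's quasi-likelihood test). TYMSOS counts were whole, from 25 to 50 per sample.

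RRM2B and TYMS were also contrasted directly on the FPKM scale. The ratio of RRM2B to TYMS FPKM was 0.391 and 0.411 in the vector samples and 1.17 and 0.892 in the shCHD7_2 samples. The vector samples thus held more TYMS than RRM2B per length, and the shCHD7_2 samples held about equal levels, RRM2B being ahead in the first and TYMS in the second. Since both genes were picked for their opposite differences, this ratio is a description of the choice.

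DUT encodes dUTPase, which hydrolyses dUTP and thereby provides the dUMP on which thymidylate synthase acts. DUT (chr15:48331011-48343373, plus strand) had 52.8 and 54.5 CPM in the vector samples and 51.9 and 54.8 CPM in the shCHD7_2 samples. The groups overlapped, and the log2 fold change of -0.007 (SE 0.087) was far inside its error. DUT thus showed no difference larger than the spread. DCTD, described below, also makes dUMP and was lower in both shCHD7_2 samples.

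DCTPP1 encodes a pyrophosphatase that clears dCTP and modified cytidine nucleotides. DCTPP1 (chr16:30423619-30430075, minus strand) had 49.7 and 44.0 CPM in the vector samples and 46.8 and 60.5 CPM in the shCHD7_2 samples. One shCHD7_2 sample lay between the vector samples and the other above them. Its log2 fold change of 0.20 (SE 0.11) ran from -0.0019 to 0.36 when 1 sample was left out at a time, the lowest value being the fit without shCHD7_2 replicate 2. DCTPP1 overlaps the opposite-strand zinc finger gene ZNF771 by 6457 bases, whose 34 to 55 counts per sample gave a log2 fold change of -0.23 (SE 0.26, adjusted p = 0.633 by edgeR's quasi-likelihood test).

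Among the members, the salvage kinases TK1 and DCK showed no separation. TK1, the cytosolic thymidine kinase that is expressed in S phase, is at chr17:78174075-78187233 on the minus strand and had 49.7 and 40.5 CPM in the vector samples and 42.3 and 52.0 CPM in the shCHD7_2 samples. DCK, the deoxycytidine kinase that also activates cytarabine and gemcitabine, is at chr4:70992538-71030914 on the plus strand and had 59.4 and 65.7 CPM in the vector samples and 67.7 and 56.8 CPM in the shCHD7_2 samples. For both, the samples of one group bracketed or interleaved with those of the other. The log2 fold changes were 0.063 (SE 0.11) for TK1 and -0.0067 (SE 0.096) for DCK, and both changed sign on leaving out single samples. DCK shares 29912 bases with MOB1B on the same strand, which had a log2 fold change of -0.31 (SE 0.10, adjusted p = 0.0482 by edgeR's quasi-likelihood test) and was short of the fold threshold.

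SAMHD1 encodes the triphosphohydrolase that degrades deoxynucleotides, chiefly in non-dividing cells. SAMHD1 (chr20:36889773-36951901, minus strand) had 41.0 and 37.4 CPM in the vector samples and 34.0 and 27.8 CPM in the shCHD7_2 samples. Both shCHD7_2 samples were below both vector samples, although the lower vector sample and the higher shCHD7_2 sample were close. The log2 fold change was -0.34 (SE 0.10), from -0.50 to -0.21 when 1 sample was left out at a time, and it did not reach the fold threshold. SAMHD1 was the lowest of the 9 genes on the FPKM scale, at 11.5 FPKM in the vector group and 9.36 FPKM in the shCHD7_2 group. Its counts were not whole, but together with the 7 to 12 counts of the overlapping opposite-strand gene TLDC2 they were whole in all 4 samples, and TLDC2 took under 3% of the sum.

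**Figure D4:**
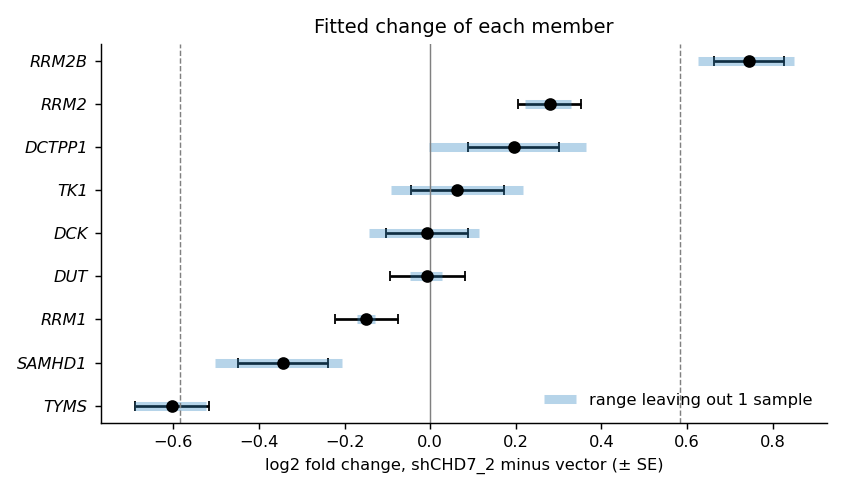
Fitted log2 fold change of each gene, shCHD7_2 minus vector, as a point with a bar of 1 standard error on each side. The blue band is the range over 4 fits that each left out 1 sample, and the dashed lines mark a 1.5-fold difference, which RRM2B clears on every fit and TYMS meets at -0.60 with a band from -0.69 to -0.52.

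By mean FPKM the order in the vector group was RRM2, TYMS, RRM1, DCTPP1, DUT, TK1, RRM2B, DCK and SAMHD1. Among neighbours in that order TYMS and RRM1 overlapped, as did DUT with TK1 and TK1 with RRM2B, since the TK1 samples were at 34.4 and 27.9 FPKM. In the shCHD7_2 group the order was RRM2, RRM1, DCTPP1, RRM2B, TYMS, TK1, DUT, DCK and SAMHD1. There DCTPP1 (49.8 and 63.5 FPKM), RRM2B (54.0 and 46.0 FPKM) and TYMS (46.2 and 51.5 FPKM) overlapped, and so did TK1 and DUT.

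Promoter sequence from RefSeq was matched for 8 of the 9 genes, and the 250 bases before the most upstream RefSeq start (GRCh38.p14) were searched on both strands for 3 promoter motifs. The E2F-type motif was written as the letters TTTNGCGC or, as a second form, the letters TTCCCGC. It was found in RRM1, TYMS and DCK and in 6.87% of 35116 RefSeq promoters of that length. The matches are shown because these genes share the motif while their values differed, TYMS and RRM1 being lower in both shCHD7_2 samples and DCK overlapping. Each line gives 30 bases 5′ to 3′ on the plus strand, and the capitals mark the match.
RRM1, chr11:4094450-4094479: gcaagaaaaacgTTCCCGCcggttaggttt
TYMS, chr18:657602-657631: cgcgggacggccGCGGGAAaaggcgcgcgg
DCK, first match, chr4:70993445-70993474: ctccggaacctcTTCCCGCgccctgcccgg
DCK, second match, chr4:70993549-70993578: cggagcgcgcacGCGGGAAcccgcgctgga

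The match of TYMS begins at position -39 and that of RRM1 at position -223, counted back from the RefSeq start. In TYMS and in the second DCK match the motif lies on the minus strand. GENCODE 29 places the starts of TYMS and DCK further upstream than the RefSeq starts used here, so the TYMS match and both DCK matches lie inside those genes as GENCODE annotates them, while the RRM1 match lies before the GENCODE start. The CCAAT box, written as the letters CCAAT, was in RRM1, RRM2 and SAMHD1 and in 32.0% of all such promoters. The GC box, written as the letters GGGCGG, was in RRM1, RRM2, TK1, DCK and DCTPP1 and in 42.6% of all such promoters. The windows of RRM2, DCK and DCTPP1 and both CCAAT matches of SAMHD1 also lie inside those genes as GENCODE annotates them. DUT held none of the 3 motifs in its window. A match describes the letters of the window and is not a bound site.

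A list of 61 other genes of nucleotide and folate metabolism was examined in the same fit, of which 60 were in the table and tested. DGUOK was the 1 gene called, in the lower direction, where 2.88% of all genes tested were called, and no gene was called higher by edgeR, by DESeq2 or by limma on FPKM. At an unadjusted p under 0.05 in edgeR's quasi-likelihood test there were 20 genes, 9 of them higher, where 25.4% of all genes tested were under it. At an adjusted p under 0.05 without a fold threshold, 4 genes were higher (NT5E, GUK1 and DNPH1 among them) and 4 were lower (DGUOK, MTHFD1, CMPK1 and DCTD), beside 11.5% of all genes tested. The median log2 fold change of the 60 genes was -0.011, beside 0.00056 over all genes tested, with 28 genes above 0 and 32 below it.

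DGUOK encodes the mitochondrial deoxyguanosine kinase, which salvages purine deoxynucleosides for mitochondrial DNA. DGUOK had 49.0 and 46.2 CPM in the vector samples and 28.8 and 30.3 CPM in the shCHD7_2 samples. The samples fell into separate ranges, and the means were 47.6 ± 1.92 CPM and 29.6 ± 1.08 CPM (SD, n = 2 each). DGUOK fell with a log2 fold change of -0.69 (SE 0.094, adjusted p = 2.53e-05 by edgeR's quasi-likelihood test), from -0.73 to -0.65 when 1 sample was left out at a time. TK2, the other mitochondrial deoxynucleoside kinase, had a log2 fold change of -0.17 (adjusted p = 0.339 by edgeR's quasi-likelihood test) and did not pass. DCTD, the deaminase that turns dCMP into dUMP for thymidylate synthase, fell from 177 and 178 CPM to 144 and 148 CPM. Its log2 fold change was -0.28 (SE 0.075, adjusted p = 0.0173 by edgeR's quasi-likelihood test), which was under the fold threshold.

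In the thymidylate and folate cycle, which hands thymidylate synthase its methylene group, 12 genes were tested. None was called by edgeR, DESeq2 or limma, and the median log2 fold change was 0.016. In edgeR 3 had an unadjusted p under 0.05, beside 25.4% of all genes tested. MTHFD1, a trifunctional folate enzyme, fell from 221 and 238 CPM to 180 and 181 CPM (log2 fold change -0.35, SE 0.075, adjusted p = 0.00322 by edgeR's quasi-likelihood test).

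Among 9 nucleotide kinases the median was -0.0061. CMPK1, which phosphorylates CMP, UMP and dCMP, fell from 179 and 184 CPM to 155 and 133 CPM (log2 fold change -0.33, SE 0.082, adjusted p = 0.00879 by edgeR's quasi-likelihood test). GUK1, the guanylate kinase, rose from 61.6 and 53.1 CPM to 66.9 and 74.4 CPM (log2 fold change 0.30, SE 0.093, adjusted p = 0.0388 by edgeR's quasi-likelihood test). The kinases that passed the p threshold therefore lay on both sides of 0, and both were under 1.5-fold.

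Ribonucleotide synthesis, which provides the substrates of the reductase, held no gene with an adjusted p under 0.05 in edgeR. At an unadjusted p under 0.05 there were 6 of 13 purine and 0 of 5 pyrimidine genes, beside 25.4% of all genes tested. The 5 pyrimidine synthesis genes had log2 fold changes between -0.064 and 0.063, with CAD, which catalyses the first steps, at -0.064 (adjusted p = 0.655 by edgeR's quasi-likelihood test) and UMPS, which makes UMP, at 0.063 (adjusted p = 0.715). The 13 purine synthesis genes had a median of -0.074, and those with the smallest p were IMPDH1, an IMP dehydrogenase, at 0.23 (adjusted p = 0.0729 by edgeR's quasi-likelihood test) and GART, a trifunctional purine enzyme, at -0.20 (adjusted p = 0.0821).

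Among 11 breakdown and pool sanitation genes the median was -0.069. NT5E, the ecto-5′-nucleotidase CD73, rose from 25.96 and 24.3 CPM to 35.2 and 32.8 CPM (log2 fold change 0.44, SE 0.099, adjusted p = 0.00504 by edgeR's quasi-likelihood test). DNPH1, which hydrolyses hydroxymethyl-dUMP, rose from 40.3 and 33.9 CPM to 41.8 and 51.3 CPM (log2 fold change 0.33, SE 0.11, adjusted p = 0.0477 by edgeR's quasi-likelihood test). For DNPH1 the lower shCHD7_2 sample was close to the higher vector sample, and both genes were under 1.5-fold.

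**Figure D5:**
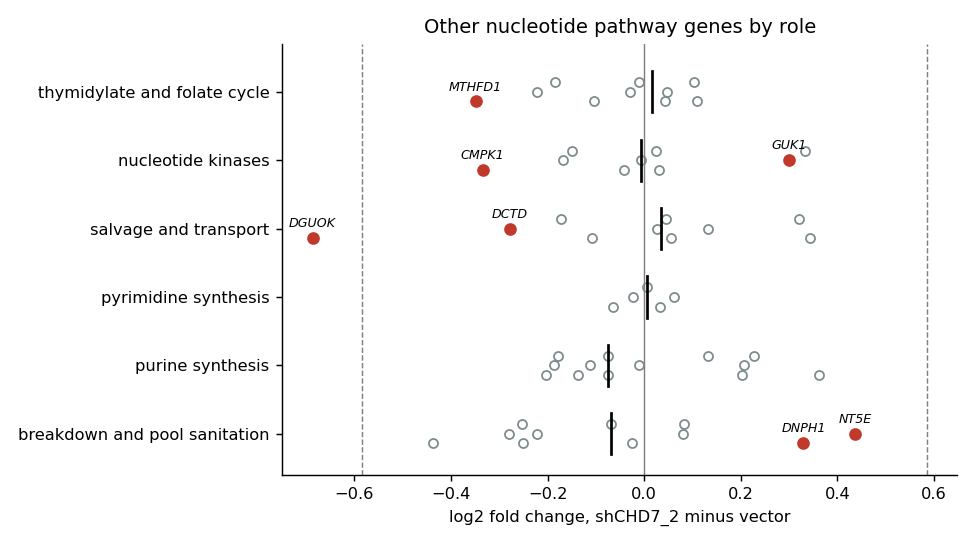
Fitted log2 fold changes of 58 of the 60 tested genes of nucleotide and folate metabolism by role, with filled and named points for an adjusted p under 0.05, open points for the rest and a bar at the median of all tested genes of each role. The dashed lines mark a 1.5-fold difference, which DGUOK alone passes.

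Since TYMS, RRM2 and TK1 are made mainly in S phase, 22 other genes of S phase were read in the same fit. None was called by edgeR, DESeq2 or limma, and 7 had an unadjusted p under 0.05 in edgeR, beside 25.4% of all genes tested. Of the 22 genes, 16 were above 0 and 6 below it, and the median log2 fold change was 0.062. The replication gene GINS1, described below, was not on this list. CCNE1, the cyclin of S phase entry, rose by a log2 fold change of 0.35 (adjusted p = 0.0096 by edgeR's quasi-likelihood test), and SLBP, the histone mRNA binding protein of S phase, fell with a log2 fold change of -0.47 (adjusted p = 0.000375 by edgeR's quasi-likelihood test). Since RRM2B is a known p53 target, 20 other p53 targets were read as well. All 20 were above 0, where 50.1% of all genes tested were, and their median log2 fold change was 0.39. This list, like that of S phase, was chosen with earlier results of these data known, so its counts are not independent of them. By edgeR's quasi-likelihood test CDKN1A, TP53INP1, GDF15 and BBC3 were called higher, and DESeq2 called 3 of the 20 and limma on FPKM called 5. Over all genes each method tested, edgeR called 180 higher (1.51%), DESeq2 91 and limma on log2(FPKM + 1) 86. The filter on low levels differed for limma, so the shares of the methods cannot be compared from these counts. Without the fold threshold, 14 of the 20 were higher at an adjusted p under 0.05 in edgeR, beside 591 of 11955 genes tested. The part of either gene group in the values of RRM2B and TYMS was not tested.

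The genes whose values over the 4 samples lay nearest to those of RRM2B were VWA5A, ZCWPW1 and ABHD5, at distances of 0.047, 0.049 and 0.061 on centred log2 CPM. ABHD5, a lipolysis co-activator, had 45.7 and 48.1 CPM in the vector samples and 81.0 and 72.2 CPM in the shCHD7_2 samples. Nearest to TYMS were TEAD2, PHF5A and GINS1, at distances of 0.047, 0.051 and 0.052. GINS1 is a subunit of the replicative helicase complex. It had 55.0 and 50.7 CPM in the vector samples and 32.8 and 36.7 CPM in the shCHD7_2 samples. Its log2 fold change was -0.60 (SE 0.094), past the 1.5-fold line. The likeness is over 4 samples that share the same groups and libraries and carries no test.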

How the data were processed

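The authors deposited estimated counts of reads per gene, which were not normalized, and FPKM values, which they had scaled for gene length and library size. The submitters' processing notes name Bowtie2, RSEM, DESeq2 and hg38, without roles or versions. Between 13.6% and 14.7% of the 15357 genes in a sample had a count that was not whole, as when reads are divided between genes. Overlapping genes are therefore uncertain. Every sample column was mapped to a label.

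Counts were rounded, filtered with filterByExpr, scaled by TMM and tested over 11955 genes with edgeR 4.0.16 (quasi-likelihood test, R 4.3.3), using the 2 vector and 2 shCHD7_2 samples without covariates and Benjamini-Hochberg adjustment. Calls needed a minimum fold change of 1.5 as well as an adjusted p under 0.05. The standard error (SE) was derived from the F statistic, and the biological coefficient of variation was 0.0579. The smallest two-sided p that permuting 2 against 2 samples allows is 0.333. Counts of replicates differed by more than sampling noise, with a chi-square per gene of 3.94 in the vector and 6.06 in the shCHD7_2 group. The tests were checked on simulated data.

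The members and gene lists were chosen with earlier results of these data known. Genes named are the members, CHD7, called pathway genes, the 2 genes with the smallest p in each pathway role, genes that overlap a member, and the 3 genes nearest to RRM2B and to TYMS by Euclidean distance of centred log2 CPM (prior count 2). TK2, CCNE1, SLBP, PCNA and the 4 p53 targets are named outside the rule, with their values already known. The values of 2 pathway genes are not reported here. Positions are from GENCODE 29.

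Alternatives were DESeq2 1.42.0, its size factors or library totals in edgeR, other filters on low counts, a replicate block, limma 3.58.1 on log2(FPKM + 1) or log2(FPKM + 0.1) with a minimum mean FPKM of 1 or none, no fold threshold, TYMS counts added to those of ENOSF1, and leaving out each sample.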

Additional observations from a re-analysis of the deposited data

How the results depend on the processing

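The 344 called genes became 219 with DESeq2, 141 with no filter on low counts, 172 with limma on log2(FPKM + 1), 23 with limma and no filter, and 1373 without a fold threshold, and ran from 308 to 380 on leaving out single samples. The pathway list had 1 called gene, against 0 with limma and no filter, where DGUOK was at -0.66 (adjusted p = 0.0635), and 8 without a fold threshold. The pathway median log2 fold change of -0.011 was close to 0 and turned sign with library totals (0.033) and with limma on FPKM (0.023 with a pseudocount of 1, 0.024 with a pseudocount of 0.1, 0.023 with no filter), and ran from -0.042 to 0.0052 on leaving out single samples.

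RRM2B ran from 0.63 to 0.85 and TYMS from -0.69 to -0.52 on leaving out single samples, and TYMS was -0.38 when its counts were added to those of ENOSF1, since ENOSF1 differed less. DUT, TK1, DCK and DCTPP1 turned sign in at least 1 setting and were within their spread. A replicate block gave 329 called genes, with RRM2B at 0.74, TYMS at -0.61, DGUOK at -0.69 and the pathway median at -0.011, and the call of DGUOK held. Deviations of same-numbered samples had a correlation of -0.198 over 11955 genes, and the labels do not say that samples were paired. With the pairing crossed, a setting added after that value was seen, 423 genes were called. With 2 samples per group, small differences were not detectable. Those of DUT, TK1 and DCK were under 1 SE. PCNA, at 0.22 (SE 0.074), had an adjusted p of 0.0575 by edgeR's quasi-likelihood test, so differences well above 1 SE also did not pass.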

Other observations

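An earlier scan of these data singled out the 7-base words AGCTATT, then GAAGCTA, then GCTATTA in 3′ UTRs of lower genes, so the words are not independent of the values here. In GENCODE 29 the longest 3′ UTR of TYMS held 1 of the 3 words, that of SAMHD1 held 1, that of DGUOK held 1 and that of RRM2B held 2, while those of the other 6 members held none. The 3 words overlap one another in their letters and were scored as present or absent, so 2 words can be 1 site. At least 1 word was in 2613 of 11693 tested genes with a 3′ UTR (22.3%). The words were therefore in the 3′ UTRs of genes on both sides of 0, and the 3′ UTRs of RRM2B (3631 bases) and SAMHD1 (3159 bases) were the longest of the 9.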
